A study of Mus musculus with 12 samples.

Results

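The 10 genes described here encode transporters, channels and a pump that move salt and water across the colonic epithelium. They are *Slc26a3*, *Slc9a2*, *Slc9a3*, *Aqp8*, *Scnn1a*, *Scnn1b*, *Scnn1g*, *Atp12a*, *Cftr* and *Slc12a2*, and they are 10 of the 54532 genes in the deposited table, where all were found by symbol. The list was selected on earlier results of these same libraries, in which *Atp12a* already showed the largest genotype difference with hemin. The values of the 10 genes are therefore a description, with no p-value for any of them.

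RNA sequencing was done on colonoids, which are epithelial organoids grown from colonic stem cells, taken from 8- to 12-week-old C57BL/6 mice. Control colonoids carried floxed *Hmox1* alleles (*Hmox1* fl/fl) and KO colonoids (*Hmox1* ΔIEC) also carried Vil1-Cre, a recombinase active in intestinal epithelium along crypts and villi. Each genotype received vehicle or 200 μM hemin, a form of heme, for 24 hours, with 3 libraries in each of the 4 groups, so that the comparisons address how heme affects epithelium with intact and with targeted *Hmox1*. All cultures were kept in L-WRN-conditioned medium, which supplies Wnt, R-spondin and noggin, with a ROCK inhibitor. The labels give 2 of the hemin-treated KO libraries a KO genotype and write that of replicate 3 as floxed alleles with Vil1-Cre. They do not say whether the 3 libraries of a group came from separate animals or cultures, so p-values measure only the spread between libraries, which may be technical.

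The surface epithelium of the colon takes up sodium and chloride through paired apical exchangers, a sodium-hydrogen exchanger of the Slc9 family and the chloride-bicarbonate exchanger Slc26a3. In the distal colon sodium also enters through the epithelial sodium channel ENaC, built of α, β and γ subunits, and the colonic proton-potassium pump Atp12a recovers potassium. In the crypts chloride is loaded through the basolateral cotransporter Slc12a2 and leaves through the apical channel Cftr, and water follows these gradients, in part through aquaporins.

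Depth ran from 11648801 fragments on genes in replicate 1 of hemin-treated controls to 25101868 in replicate 2 of the hemin-treated libraries labelled KO. The deposited FPKM divide fragments by gene length and by an effective library size that differs from the fragment count, so that levels of different genes can be compared. After multiplication by gene length, 100% of the values fell on multiples of a single fragment, within a tolerance of 0.01. Fragments could thus be recovered, and 3 fragments per library were taken as the floor of detection, which covers counting error only. Of the FPKM sum, the noncoding RNA *Gm23935* held 29.0% in replicate 1 of hemin-treated controls, 21.0% in replicate 2 of hemin-treated KO and 16.8% in replicate 1 of vehicle-treated controls, against 1.18% to 2.81% in the other 9 libraries. Member differences without these 3 libraries, a choice made after seeing the data, follow the gene descriptions. Replicate 3 of hemin-treated controls also stood apart, with a chi-square per degree of freedom of 36.1 and 43.2 against the other libraries of its group, which had 22.9 between them. By the same measure replicate 2 of hemin-treated KO had 30.6 and 28.9, against 3.51 between the others of its group. Replicate 1 of vehicle-treated controls had 18.3 and 17.4, against 2.56.

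*Hmox1*, the deleted gene, checked the labels. Its FPKM was 7.62, 6.85 and 7.90 in vehicle-treated controls and 3.14, 2.11 and 2.31 in vehicle-treated libraries labelled KO. With hemin it was 503, 483 and 382 in controls and 1279, 1393 and 1271 in libraries labelled KO. Under vehicle *Hmox1* was lower in every library labelled KO, and under hemin it was higher in every one of them, which goes against the label. FPKM of a whole gene do not show whether the fragments came from the deleted part. Every direction between genotypes below rests on the labels.

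The colonoid label was checked against cell type markers. All 6 general epithelial markers passed the filter on low values, with a summed FPKM between 5541 and 9598 in the 12 libraries and *Krt8* as the most abundant. All 13 absorptive colonocyte markers passed, with the carbonic anhydrase *Car1* highest over all libraries together, and so did all 9 goblet cell markers, led by *Tff3*. Fibroblast markers summed to at most 0.0791 FPKM in any library, with *Col1a2*, *Dcn* and *Lum* at or under 3 fragments in each of them. Of the immune markers *Cd3e* and *Adgre1* were at or under the floor in each library, and the sum ran from 1.04 to 5.17 FPKM, most of it from *Cd68*. This was the only immune marker tested, and it was called higher for hemin in colonoids labelled KO, by 1.14. Tuft cell markers summed to at most 0.553 FPKM, and *Dclk1*, *Pou2f3*, *Il25* and *Alox5ap* were at or under the floor. Endothelial markers summed to at most 0.614 FPKM, most of it from *Vwf*, with *Kdr* at or under the floor.

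*Slc26a3* (ENSMUSG00000001225), the apical chloride-bicarbonate exchanger, lies on chromosome 12 from 31390871 to 31473917 in GRCm38, as do the coordinates below. Its FPKM was 14.3, 14.97 and 14.5 in vehicle-treated controls and 27.1, 25.5 and 37.4 in hemin-treated controls. In libraries labelled KO it was 38.5, 38.0 and 37.0 with vehicle and 24.6, 20.5 and 22.1 with hemin. Hemin libraries thus lay above all vehicle libraries in controls and below all of them in colonoids labelled KO. The group means were 14.6 ± 0.352, 29.99 ± 6.43, 37.8 ± 0.754 and 22.4 ± 2.06 (SD, n = 3 each), and only hemin-treated control and vehicle-treated KO overlapped among neighbours in that order of levels. The log2 difference for hemin was 0.97 (SE 0.12) in controls and −0.73 (SE 0.12) in colonoids labelled KO. Between genotypes it was 1.32 with vehicle and −0.39 with hemin. Differences are on the scale of log2(FPKM + 1), which understates the change of low genes.

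*Slc9a3* (ENSMUSG00000036123, chromosome 13 from 74121457 to 74169442) encodes NHE3, the main apical sodium-hydrogen exchanger of absorptive cells. Its FPKM was 7.55, 10.3 and 9.29 in vehicle-treated controls, 15.7, 14.7 and 15.8 with hemin, 6.51, 6.39 and 6.19 in vehicle-treated KO and 8.39, 6.89 and 7.75 in hemin-treated KO. Hemin-treated controls stood above all other libraries, and vehicle-treated KO below all others. Vehicle-treated control and hemin-treated KO overlapped. The log2 difference for hemin was 0.71 (SE 0.10) in controls and 0.23 (SE 0.10) in colonoids labelled KO, and that between genotypes was −0.44 with vehicle and −0.92 with hemin.

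*Slc9a2* (ENSMUSG00000026062, chromosome 1 from 40680574 to 40769273) encodes NHE2, another apical exchanger of the same family. Its FPKM was 37.1, 37.9 and 36.1 in vehicle-treated controls, 54.4, 49.4 and 55.0 with hemin, 26.2, 28.3 and 26.2 in vehicle-treated KO and 55.5, 41.6 and 49.0 in hemin-treated KO. Hemin libraries lay above vehicle libraries in both genotypes, and the hemin-treated groups overlapped with each other. The log2 difference for hemin was 0.50 (SE 0.09) in controls and 0.82 (SE 0.09) in colonoids labelled KO. *Slc9a2* was the more abundant of both exchangers in every library, with a ratio of *Slc9a2* to *Slc9a3* FPKM of 4.16 ± 0.670 in vehicle-treated controls, 3.44 ± 0.0613 in hemin-treated controls, 4.23 ± 0.208 in vehicle-treated KO and 6.32 ± 0.289 in hemin-treated KO (SD, n = 3). The ratio was highest in all 3 hemin-treated KO libraries.

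The subunits of ENaC differed in level. *Scnn1a* (ENSMUSG00000030340, chromosome 6 from 125320659 to 125344943), the α subunit, had FPKM of 1.14, 1.10 and 0.863 in vehicle-treated controls and 1.53, 1.39 and 1.08 in hemin-treated controls. In libraries labelled KO it reached 17.4, 18.3 and 19.3 with vehicle and 52.2, 39.6 and 45.9 with hemin. Control libraries were all near 1 and overlapped between treatments, vehicle-treated KO stood above them, and hemin-treated KO stood highest. The mean was 17.7 times that of controls with vehicle and 34.5 times with hemin, a log2 difference of 3.25 (SE 0.11) and 4.33 (SE 0.11). With hemin the difference of *Scnn1a* was 0.19 (SE 0.11) in controls, where groups overlapped, and 1.27 (SE 0.11) in colonoids labelled KO.

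The β and γ subunits, *Scnn1b* (ENSMUSG00000030873, from 121865038 to 121918514) and *Scnn1g* (ENSMUSG00000000216, from 121734479 to 121768475), are neighbours on chromosome 7, and are read from the same strand. *Scnn1b* had no fragment in the 3 vehicle-treated control libraries, where 3 fragments would be an FPKM of 0.0667 to 0.0829. Its FPKM was 0.932, 0.867 and 0.975 in hemin-treated controls, 0.372, 0.505 and 0.293 in vehicle-treated KO and 1.03, 0.710 and 0.900 in hemin-treated KO. In both genotypes the hemin libraries lay above the vehicle libraries, and the hemin-treated groups overlapped with each other. Against the floor, *Scnn1b* was at least 12.7-fold higher with hemin in controls and at least 5.35-fold higher in vehicle-treated KO than in vehicle-treated controls. These values rest on 85 fragments over the hemin-treated controls, 52 over vehicle-treated KO and 117 over hemin-treated KO.

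*Scnn1g* was barely detected. It had no fragment in vehicle-treated controls, 0, 3 and 1 in hemin-treated controls, 6, 1 and 3 in vehicle-treated KO and 4, 17 and 14 in hemin-treated KO, where FPKM was 0.0929, 0.242 and 0.326. The hemin-treated KO libraries held most of the fragments but overlapped with vehicle-treated KO in FPKM. Within hemin-treated KO the mean FPKM was 45.9 for *Scnn1a*, 0.880 for *Scnn1b* and 0.220 for *Scnn1g*. The ratio of *Scnn1a* to *Scnn1b* FPKM was 1.45 ± 0.299 in hemin-treated controls, 49.6 ± 14.95 in vehicle-treated KO and 52.5 ± 2.85 in hemin-treated KO (SD, n = 3), so with hemin the α subunit exceeded the β subunit far more in libraries labelled KO. No ratio can be given for vehicle-treated controls, where *Scnn1b* had no fragment.

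*Atp12a* (ENSMUSG00000022229, chromosome 14 from 56365068 to 56388550), the catalytic subunit of the colonic proton-potassium pump, separated the genotypes most. Its FPKM was 0, 0.102 and 0.217 in vehicle-treated controls, from 0, 7 and 12 fragments, and hemin-treated controls held no fragment. In libraries labelled KO it was 61.2, 63.9 and 64.4 with vehicle and 156, 130 and 151 with hemin. Control libraries were at or near 0, while each vehicle-treated KO library held over 4000 fragments and each hemin-treated one held still more. With vehicle the log2 difference between genotypes was 5.86, and no fold is given because the controls hold 19 fragments. With hemin colonoids labelled KO were at least 2270-fold higher, against the floor. Hemin-treated KO exceeded vehicle-treated KO 2.31-fold, a log2 difference of 1.19 (SE 0.08). The annotation places *Gm10873* on the opposite strand over 557 exonic bases of *Atp12a*. Whether counting used strand is not given in the sources used here, so fragments of both genes there cannot be told apart.

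*Aqp8* (ENSMUSG00000030762, chromosome 7 from 123462291 to 123468004), a water channel of the colonic surface epithelium, was the most abundant of the 10 in both groups labelled KO. Its FPKM was 38.2, 47.6 and 46.2 in vehicle-treated controls and 10.98, 11.4 and 8.50 in hemin-treated controls. In libraries labelled KO it was 408, 445 and 425 with vehicle and 778, 421 and 642 with hemin. Hemin-treated controls were lowest, and every library labelled KO was above every control library, but the KO groups overlapped through replicate 2 with hemin. The log2 difference for hemin was −2.00 (SE 0.19) in controls and 0.48 (SE 0.19) in colonoids labelled KO. Without replicate 2 of hemin-treated KO, one of the libraries rich in *Gm23935*, the latter was 0.73. The mean of colonoids labelled KO was 9.69 times that of controls with vehicle and 59.6 times with hemin. Since these are bulk libraries, a change in the number of cells of a type and a change in RNA per cell cannot be told apart, for *Aqp8* or any gene here.

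On the secretory side, *Slc12a2* (ENSMUSG00000024597, chromosome 18 from 57878678 to 57946821) encodes NKCC1, the basolateral sodium-potassium-chloride cotransporter. Its FPKM was 130, 120 and 123 in vehicle-treated controls, 72.5, 81.3 and 98.0 in hemin-treated controls, 159, 156 and 158 in vehicle-treated KO and 38.0, 43.6 and 39.7 in hemin-treated KO. No group overlapped with another, with vehicle-treated KO highest and hemin-treated KO lowest. The log2 difference for hemin was −0.57 (SE 0.10) in controls and −1.94 (SE 0.10) in colonoids labelled KO. Between genotypes it was 0.35 with vehicle and −1.03 with hemin. The deposited length of *Slc12a2* was 6520 bases against 10920 bases of merged exons in GENCODE M21, so its level relative to other genes depends on the gene model.

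*Cftr* (ENSMUSG00000041301, chromosome 6 from 18170687 to 18322768) encodes the apical chloride channel mutated in cystic fibrosis. Its FPKM was 14.6, 11.9 and 11.99 in vehicle-treated controls, 11.3, 11.8 and 17.6 in hemin-treated controls, 11.8, 11.3 and 10.4 in vehicle-treated KO and 4.08, 4.51 and 4.10 in hemin-treated KO. Hemin-treated KO stood below all other libraries, and the control groups overlapped. The log2 difference for hemin was 0.06 (SE 0.14) in controls and −1.22 (SE 0.14) in colonoids labelled KO. Between genotypes with hemin it was −1.45, a mean 3.21 times lower in colonoids labelled KO. *Gm15592* lies on the opposite strand over 129 exonic bases of *Cftr*, with the same limit as for *Atp12a*.

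**Figure D1:**
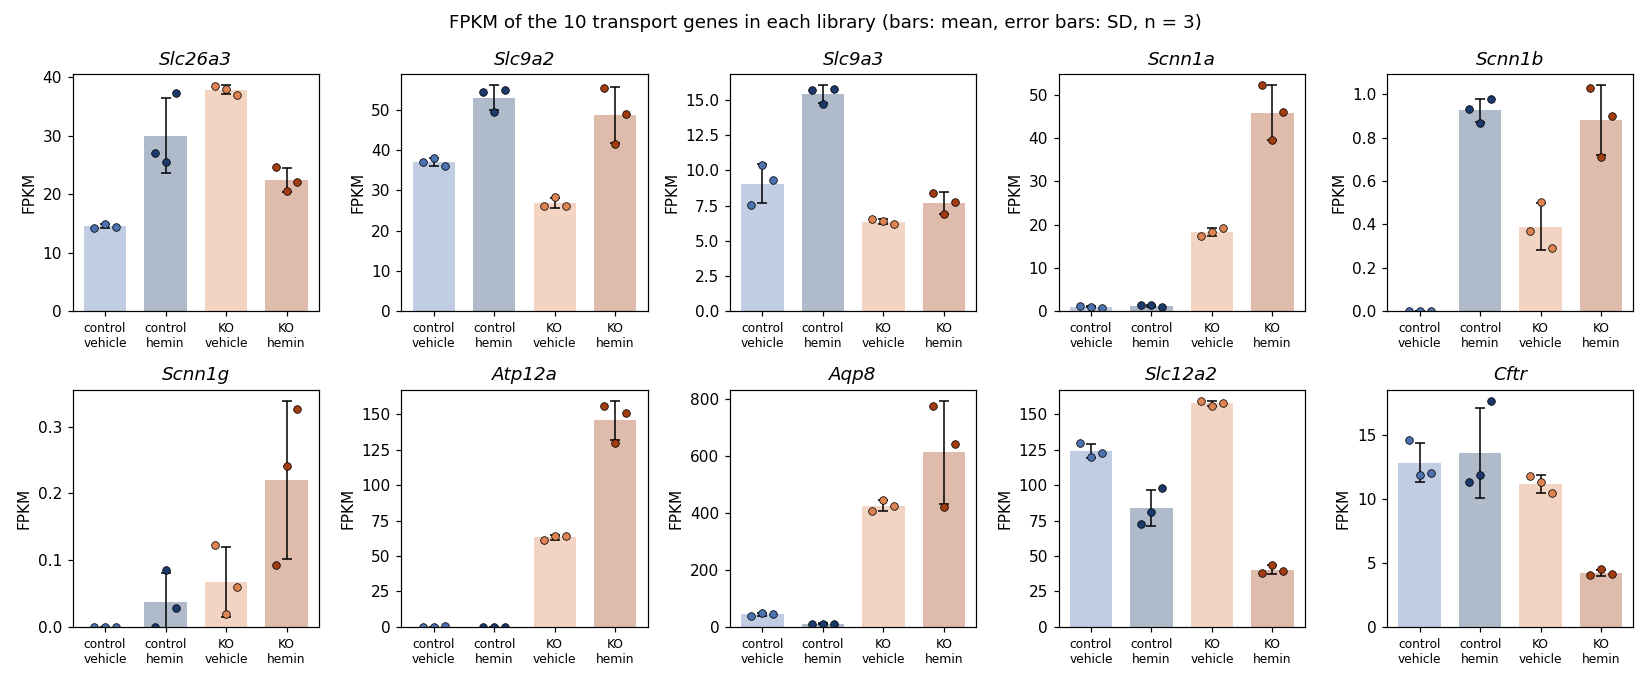
FPKM (y axes, linear, from 0) of the 10 genes in vehicle- and hemin-treated control colonoids and colonoids labelled KO (x axes); points are libraries, bars are means and error bars SD of 3 libraries. *Scnn1a*, *Atp12a* and *Aqp8* are high in both groups labelled KO, *Slc12a2* and *Cftr* are lowest in hemin-treated KO, and *Slc26a3* moves up with hemin in controls and down in colonoids labelled KO.

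In the 9 libraries poor in *Gm23935*, all log2 differences of the 8 tested members lay within 0.4 of those above. The largest shifts were in *Aqp8*, whose interaction went from 2.48 to 2.87 and whose difference between genotypes with hemin went from 5.73 to 6.03. *Slc26a3* for hemin in controls went from 0.97 to 1.02, the only call that changed. *Slc9a2* between genotypes with hemin went from −0.13 to 0.00. *Cftr* for hemin in controls went from 0.06 to 0.26, while leaving out replicate 3 of hemin-treated controls alone turned it to −0.13.

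Put together, the 10 genes summed to 243 ± 0.940 FPKM in vehicle-treated controls, 208 ± 22.5 in hemin-treated controls, 748 ± 19.4 in vehicle-treated KO and 930 ± 207 in hemin-treated KO (SD, n = 3). The secretory gene *Slc12a2* held 51.1% of this sum in vehicle-treated controls and 40.2% in hemin-treated controls. In vehicle-treated KO *Aqp8* held 56.9%, *Slc12a2* 21.1% and *Atp12a* 8.45%, and in hemin-treated KO they held 65.2%, 4.56% and 16.0%. The ratio of *Cftr* to *Slc26a3* FPKM was 0.881 ± 0.122, 0.451 ± 0.0295, 0.295 ± 0.0129 and 0.190 ± 0.0273 in vehicle-treated control, hemin-treated control, vehicle-treated KO and hemin-treated KO, with no overlap between these groups. These ratios are taken within a library and do not move with its scaling.

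Of the 10 genes, 8 passed the filter, which asked for 3 libraries or more with an FPKM no lower than 1. *Scnn1b* reached 1 only in replicate 1 of hemin-treated KO and *Scnn1g* in no library, so these were not tested. *Atp12a* passed only through the libraries labelled KO, so it had to differ between genotypes to be tested, and its genotype calls below carry no weight. With controls at or near 0 it had little room to fall there. Its interaction thus largely repeats its hemin difference in colonoids labelled KO, and that call carries no weight either. *Scnn1a* reached 1 in 5 control libraries besides all those labelled KO. Calls needed an absolute log2 difference above 1 besides an adjusted p-value below 0.05. Since the genes were chosen on these values, the counts of calls that follow stand beside those of all 12740 tested genes without anything being read from them.

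For hemin in controls no member was called higher and *Aqp8* was called lower, where 2.17% of all tested genes were called higher and 5.93% lower. For hemin in colonoids labelled KO, *Scnn1a* and *Atp12a* were called higher and *Slc12a2* and *Cftr* lower, against 4.87% and 8.07% of all genes. Between genotypes with vehicle, *Atp12a*, *Aqp8*, *Scnn1a* and *Slc26a3* were called higher in colonoids labelled KO and none lower, against 3.53% and 3.27%. With hemin, *Atp12a*, *Aqp8* and *Scnn1a* were called higher and *Cftr* and *Slc12a2* lower, against 3.1% and 2.91%. For the interaction, the difference of the hemin response between genotypes, *Aqp8*, *Atp12a* and *Scnn1a* were called higher and *Slc26a3*, *Slc12a2* and *Cftr* lower, against 2.57% and 2.56%. Just outside the threshold were *Slc26a3* for hemin in controls, at a log2 difference of 0.97, and *Slc9a3* between genotypes with hemin, at −0.92; just inside were *Slc12a2* in the latter, at −1.03, and *Scnn1a* in the interaction, at 1.08. The call of *Slc12a2* was lost without replicate 3 of hemin-treated controls (−0.91) or replicate 1 of hemin-treated KO (−0.98). That of *Scnn1a* in the interaction was lost under 6 of 21 alternatives. Among these were leaving out replicate 3 of hemin-treated controls (1.00) or replicate 1 of hemin-treated KO (0.98).

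The deposited values are scaled so that the typical gene is level between libraries, with a median log2 difference of all tested genes between −0.01 and 0.04 in the 5 contrasts. Rescaled to TPM, where every library sums to the same total, that median became −0.16 for hemin in controls, −0.27 for hemin in colonoids labelled KO, 0.14 between genotypes with vehicle, 0.04 between genotypes with hemin and −0.11 for the interaction. On that scale the difference of *Slc9a3* for hemin in colonoids labelled KO turned from 0.23 to −0.06, which is 0.21 relative to the median gene. That of *Cftr* for hemin in controls turned from 0.06 to −0.12, which is 0.05 relative to it. The calls of *Scnn1a* (0.94) and *Atp12a* (0.85) for hemin in colonoids labelled KO fell short of the threshold on the TPM scale, and *Slc26a3* went from −0.73 to −1.06 and became called. Relative to the median gene these were 1.21, 1.12 and −0.79. The deposited scale is already level at the median gene, so taking off the median, here and below, returns close to the deposited values. It cannot say which scale is right, and the cause of the changed calls was not tested. The split of all calls also moved, from 277 higher and 756 lower to 171 and 1035 for hemin in controls, from 620 and 1028 to 305 and 1808 for hemin in colonoids labelled KO, and from 328 and 326 to 246 and 437 for the interaction.

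Likeness of pattern was measured as Pearson's r of log2(FPKM + 1) over the 12 libraries, which share groups and so are not independent points. *Atp12a* was most like *Ccnd2* (0.996), *Clic5* (0.995) and *Hoxb13* (0.995), and *Scnn1a* most like *Slpi* (0.999), *Mb21d2* (0.996) and *Clic5* (0.993). Between *Scnn1a* and *Atp12a* r was 0.992. *Aqp8* was most like *Itih5* (0.991), *Wfdc2* (0.991) and *Gstm2* (0.990), with 0.955 to *Atp12a*. On the secretory side, the genes most like *Slc12a2* included *Fgfr2* (0.987) and *B4galnt4* (0.987), and *Cftr* was most like *Samd12* (0.986), *Trim35* (0.977) and *Slc39a8* (0.974), with 0.824 between *Slc12a2* and *Cftr*. *Slc9a2* was most like *Parp14* (0.989), *Krt20* (0.981) and *Ehhadh* (0.977), and *Slc9a3* most like *Ces1f* (0.977), *Ces1g* (0.976) and *Gucy2c* (0.974), the guanylin receptor. *Slc26a3* was most like *Gopc* (0.963), *Dnajc12* (0.956) and *Sytl2* (0.904) and had r of at most 0.532 with any of the other 9 members, which it reached with *Scnn1b*.

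RefSeq promoters on GRCm38.p6 were at hand for 6 of the 10 genes, *Cftr*, *Scnn1g*, *Scnn1b*, *Aqp8*, *Slc26a3* and *Slc9a3*, while *Slc9a2*, *Scnn1a*, *Atp12a* and *Slc12a2* are named only. The 250 bases before the starts of *Aqp8* and *Slc26a3* are shown 5′ to 3′ on the + strand. *Aqp8* was higher in every library labelled KO than in every control library, like *Atp12a* and *Scnn1a*. The hemin difference of *Slc26a3* had opposite signs in the genotypes. The *Aqp8* window is chr7:123462044-123462293, of which 3 bases lie in the first exon of the GENCODE annotation. The *Slc26a3* window is chr12:31437969-31438218, which lies inside the deposited gene span and within *Slc26a3-205*, a longer annotated transcript, with 2 bases in an exon. Both strands were searched for TGACNNNGC, the core of antioxidant response elements, for TTTATNG, bound by CDX factors, for CAAAGTCCA, bound by HNF4, and for GTTAATNAT, the first part of the HNF1 site. Of 32851 promoters of this length, 10.2%, 9.81%, 0.384% and 0.737% held them. Of the 6 genes *Slc26a3* alone held a match, to the HNF1 letters from position −84, shown in capitals, and the absence of the other letters says only that these windows do not hold them.
Aqp8: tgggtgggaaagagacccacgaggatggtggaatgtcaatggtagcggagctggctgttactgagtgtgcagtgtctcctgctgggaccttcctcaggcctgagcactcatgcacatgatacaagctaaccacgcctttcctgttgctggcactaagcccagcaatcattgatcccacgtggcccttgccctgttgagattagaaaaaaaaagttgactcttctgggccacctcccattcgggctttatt
Slc26a3: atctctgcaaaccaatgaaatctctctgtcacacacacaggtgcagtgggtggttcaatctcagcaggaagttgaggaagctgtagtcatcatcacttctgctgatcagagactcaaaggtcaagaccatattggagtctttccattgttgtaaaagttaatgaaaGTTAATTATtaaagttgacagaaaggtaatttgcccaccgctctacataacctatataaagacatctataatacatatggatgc

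The rest of the ion and water transport machinery was described from a list of 133 other genes in 11 roles, of which 132 symbols were found and 87 passed the filter. For hemin in controls 4 of the 87 were called higher and 16 lower, where 2.17% and 5.93% of all tested genes were, with a median log2 difference of −0.03 against −0.01 for all tested genes. For hemin in colonoids labelled KO 9 were called higher and 21 lower (all genes 4.87% and 8.07%; median −0.03 against 0.00). Between genotypes 8 were called higher and 8 lower with vehicle (all genes 3.53% and 3.27%; median −0.07 against 0.02), and 7 higher and 10 lower with hemin (all genes 3.1% and 2.91%; median −0.03 against 0.04). The interaction was called for 5 higher and 7 lower (all genes 2.57% and 2.56%; median 0.06 against 0.02). The contrasts share groups and so are not independent of each other. *Best2* had all hemin-treated control libraries at 0, and setting it to the floor left the medians of the 4 contrasts between groups as given; the interaction was not run so. In all, 41 genes of the list were called in at least 1 contrast. The matching share of all tested genes was not computed, so nothing is read from this count. Some genes named below passed the filter only through part of the libraries, *Best2* and *Stk39* through those labelled KO, *Fxyd4* through vehicle-treated KO, *Slc4a4* through controls, and *Kcnn4*, *Aqp1*, *Slc12a8*, *Slc9a4* and *Ano7* through vehicle libraries. Their differences from those groups are described without p-values. None of their calls was lost when the filter was left out. The log2 differences stay the same there, so this is no check on how these genes entered.

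Among regulators of ENaC, *Sgk1*, a kinase that keeps the channel at the cell surface, had FPKM of 3.19, 3.44 and 3.32 in vehicle-treated controls, 10.6, 10.3 and 11.2 with hemin, 8.31, 8.73 and 8.55 in vehicle-treated KO and 118, 115 and 113 in hemin-treated KO. The groups did not overlap, and hemin-treated KO stood far above the others. It rose with hemin by a log2 difference of 1.44 in controls (SE 0.05, adjusted p = 8.5e-09) and 3.61 in colonoids labelled KO (SE 0.05, adjusted p = 7.1e-12), with an interaction of 2.17 (adjusted p = 3.2e-08). *Spint1*, an inhibitor of the proteases that activate ENaC, rose with hemin by 1.16 in controls (adjusted p = 5.7e-06; 0.97 and not called on the TPM scale, 1.14 relative to the median gene) and 1.58 in colonoids labelled KO (adjusted p = 3.1e-07), and *Spint2*, the most abundant gene of this role, was not called. *Hsd11b2*, which inactivates glucocorticoids and so leaves the mineralocorticoid receptor to aldosterone, differed with hemin by −2.70 in controls (adjusted p = 5e-08) and −2.58 in colonoids labelled KO (adjusted p = 3.2e-08). In all, 12 of the 13 genes of this role were tested, and *Sgk1* alone was called between genotypes, higher in colonoids labelled KO with either treatment.

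Of the other sodium-hydrogen exchangers and their partners, 10 of 13 were tested. *Slc9a4*, a basolateral exchanger, fell with hemin, by −1.36 in controls and −1.26 in colonoids labelled KO. *Chp1*, a cofactor of these exchangers, was lower in vehicle-treated KO by a log2 difference of −1.20 (adjusted p = 2.5e-07) and rose with hemin in colonoids labelled KO by 1.58 (adjusted p = 2.2e-08). *Slc9a3r1*, which encodes the scaffold NHERF1 and was the most abundant of this role, rose with hemin in colonoids labelled KO by 1.17 (adjusted p = 6.6e-05), a call lost on the TPM scale (0.83, which is 1.10 relative to the median gene). Among 5 tested bicarbonate and anion exchangers of 12, *Slc4a4*, the basolateral sodium-bicarbonate cotransporter, had FPKM of 8.77, 8.95 and 9.26 in vehicle-treated controls and 0.673, 0.626 and 0.653 in vehicle-treated KO. It was lower in every library labelled KO, by −2.60 with vehicle and −1.41 with hemin. *Slc26a2*, a sulfate transporter and the most abundant of this role, was called in no contrast.

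The sodium-potassium pump drives all of these transporters from the basolateral side. *Atp1b1*, its β1 subunit and the most abundant of this role over all libraries together, with 6 of 12 genes tested, had FPKM of 264 to 296 in vehicle-treated controls, 431 to 568 with hemin, 396 to 408 in vehicle-treated KO and 822 to 897 in hemin-treated KO, and rose with hemin in colonoids labelled KO by 1.09 (adjusted p = 2.7e-06), a call lost on the TPM scale (0.75, which is 1.02 relative to the median gene). *Fxyd4*, a regulator of the pump, was under 0.1 FPKM in control libraries and at 1.34, 1.89 and 1.67 in vehicle-treated KO. It was higher there by 1.37 and fell with hemin in colonoids labelled KO (−1.03, and −0.99 without replicate 3 of hemin-treated KO). Of the gastric proton pump genes, neither passed the filter, and *Atp4a*, the catalytic subunit in the stomach, was at most 0.146 FPKM.

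Potassium channels supply the driving force for chloride exit, and 6 of 15 were tested. *Kcnn4*, a calcium-activated channel, had FPKM of 11.4, 13.3 and 13.96 in vehicle-treated controls and 17.9, 19.3 and 18.1 in vehicle-treated KO, against 0.0837 to 0.149 with hemin in controls and 0.0818 to 0.208 in colonoids labelled KO. Its hemin differences were −3.65 in controls and −4.06 in colonoids labelled KO. *Kcnk6*, a background channel, had −1.22 (adjusted p = 7.3e-07) and −1.62 (adjusted p = 4.9e-08), while the most abundant, *Kcnk1*, was not called. Of the cotransporters and kinases around *Slc12a2*, *Stk39*, which encodes the kinase SPAK that activates NKCC1, had FPKM of 0.587, 0.567 and 0.441 in vehicle-treated controls and 9.86, 9.39 and 9.39 in vehicle-treated KO. It was higher in every library labelled KO, by 2.79 with vehicle and 2.59 with hemin, and not called for hemin in either genotype. *Slc12a8* fell with hemin, with −2.49 in controls and −3.41 in colonoids labelled KO, and *Oxsr1*, a relative of SPAK and the most abundant of this role, was not called.

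Chloride channels and related genes other than *Cftr* gave 13 tested of 14 in the table. *Ano1*, the calcium-activated chloride channel, fell with hemin, with −2.68 in controls (adjusted p = 8e-10) and −1.85 in colonoids labelled KO (adjusted p = 4.7e-09). *Best2*, a bestrophin channel found in colonic goblet cells, was at 0.246, 0.237 and 0.197 FPKM in vehicle-treated controls, 0 in hemin-treated controls, 13.7, 15.4 and 15.4 in vehicle-treated KO and 1.06, 1.51 and 1.35 in hemin-treated KO. It was higher in every library labelled KO, by 3.69 with vehicle, and at least 11.3-fold higher with hemin against the floor. *Clca3b* had FPKM of 84.4, 82.8 and 81.2 in vehicle-treated KO and 3.66, 3.45 and 3.42 in hemin-treated KO, a difference of −4.22 (adjusted p = 5.1e-11), while in controls its hemin difference of −0.19 was not called. *Clca1*, a protein secreted by goblet cells, and *Ano7* fell with hemin in both genotypes, *Clca1* with −1.12 and −2.18 (adjusted p = 4.8e-07 and 1.8e-09). The call of *Ano7* in controls was lost when replicate 2 or 3 of vehicle-treated or replicate 1 of hemin-treated controls was left out. *Ano10* rose in both, by 1.06 (adjusted p = 3e-07) and 1.43 (adjusted p = 1.6e-08). Its call in controls was lost on the TPM scale (0.88, which is 1.04 relative to the median gene) and without replicate 3 of hemin-treated controls. *Clcn2* rose in colonoids labelled KO by 1.39 (adjusted p = 1.6e-06). *Clca4a* and *Clca4b* were lower in colonoids labelled KO with hemin, by −1.63 (adjusted p = 1.2e-05) and −1.25 (adjusted p = 1.9e-05), and *Clca4b* also with vehicle, by −1.69 (adjusted p = 1.5e-06).

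The hormones that drive intestinal chloride secretion through cyclic GMP were lower in colonoids labelled KO. *Guca2a*, which encodes guanylin, had FPKM of 447, 539 and 513 in vehicle-treated controls, 519, 539 and 582 with hemin, 81.5, 86.9 and 84.7 in vehicle-treated KO and 22.9, 19.0 and 21.5 in hemin-treated KO. Every library labelled KO lay below every control library, by −2.55 with vehicle (SE 0.09, adjusted p = 3.1e-09) and −4.63 with hemin (SE 0.09, adjusted p = 4.6e-11). *Guca2b*, which encodes uroguanylin, was lower by −1.26 (adjusted p = 0.00017) and −2.22 (adjusted p = 2.3e-06), and fell with hemin in both genotypes. *Prkg2*, the cyclic GMP-dependent kinase that opens Cftr, was lower by −2.42 (adjusted p = 7.7e-09) and −1.80 (adjusted p = 7.8e-08). In all, 9 of 12 genes of this role were tested.

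Besides *Aqp8*, 3 of 10 aquaporins were tested. *Aqp4* had FPKM of 11.2, 10.1 and 10.2 in vehicle-treated controls, 0.621, 0.699 and 0.472 with hemin, 74.5, 72.5 and 71.95 in vehicle-treated KO and 4.10, 4.67 and 3.95 in hemin-treated KO. It was higher in every library labelled KO under the same treatment, by 2.69 with vehicle (adjusted p = 5.3e-10) and 1.71 with hemin (adjusted p = 2.1e-08), and its hemin differences were −2.85 (adjusted p = 8.3e-10) and −3.82 (adjusted p = 5.1e-11). *Aqp1* fell with hemin, with −3.75 in controls and −2.99 in colonoids labelled KO. The remaining tested aquaporin was called higher with hemin in both genotypes.

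Solute uptake, with sodium-coupled transporters and proton-coupled monocarboxylate transporters, gave 13 tested of 15. *Slc10a2*, the sodium-coupled bile acid transporter, had FPKM of 8.31, 8.07 and 7.61 in vehicle-treated controls and 2.28, 2.18 and 3.46 with hemin, a difference of −1.32 (adjusted p = 5.6e-06). In colonoids labelled KO it had 5.07, 4.60 and 4.85 with vehicle and 16.4, 19.5 and 18.4 with hemin, a rise by 1.71 (adjusted p = 4.4e-07), with an interaction of 3.03 (adjusted p = 9.4e-07). *Slc20a1*, a phosphate transporter, fell with hemin in controls (−1.32, adjusted p = 1.9e-08) and was higher in colonoids labelled KO by 1.00 with vehicle (adjusted p = 9.5e-08) and 2.09 with hemin (adjusted p = 2.8e-10). The vehicle call of *Slc20a1* was lost without replicate 1 of vehicle-treated controls and in the libraries poor in *Gm23935* (0.99 in both). *Slc6a14*, an amino acid transporter, fell with hemin, with −1.47 (adjusted p = 1.6e-05) and −1.76 (adjusted p = 2.4e-06), and the lactate transporter *Slc16a3* fell in controls (−1.57, adjusted p = 0.00019). *Slc5a9*, a sugar transporter, was lower in colonoids labelled KO by −1.24 with vehicle (adjusted p = 8.5e-08) and −1.67 with hemin (adjusted p = 7.8e-09). The most abundant over all libraries together, the monocarboxylate transporter *Slc16a1*, was not called.

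**Figure D2:**
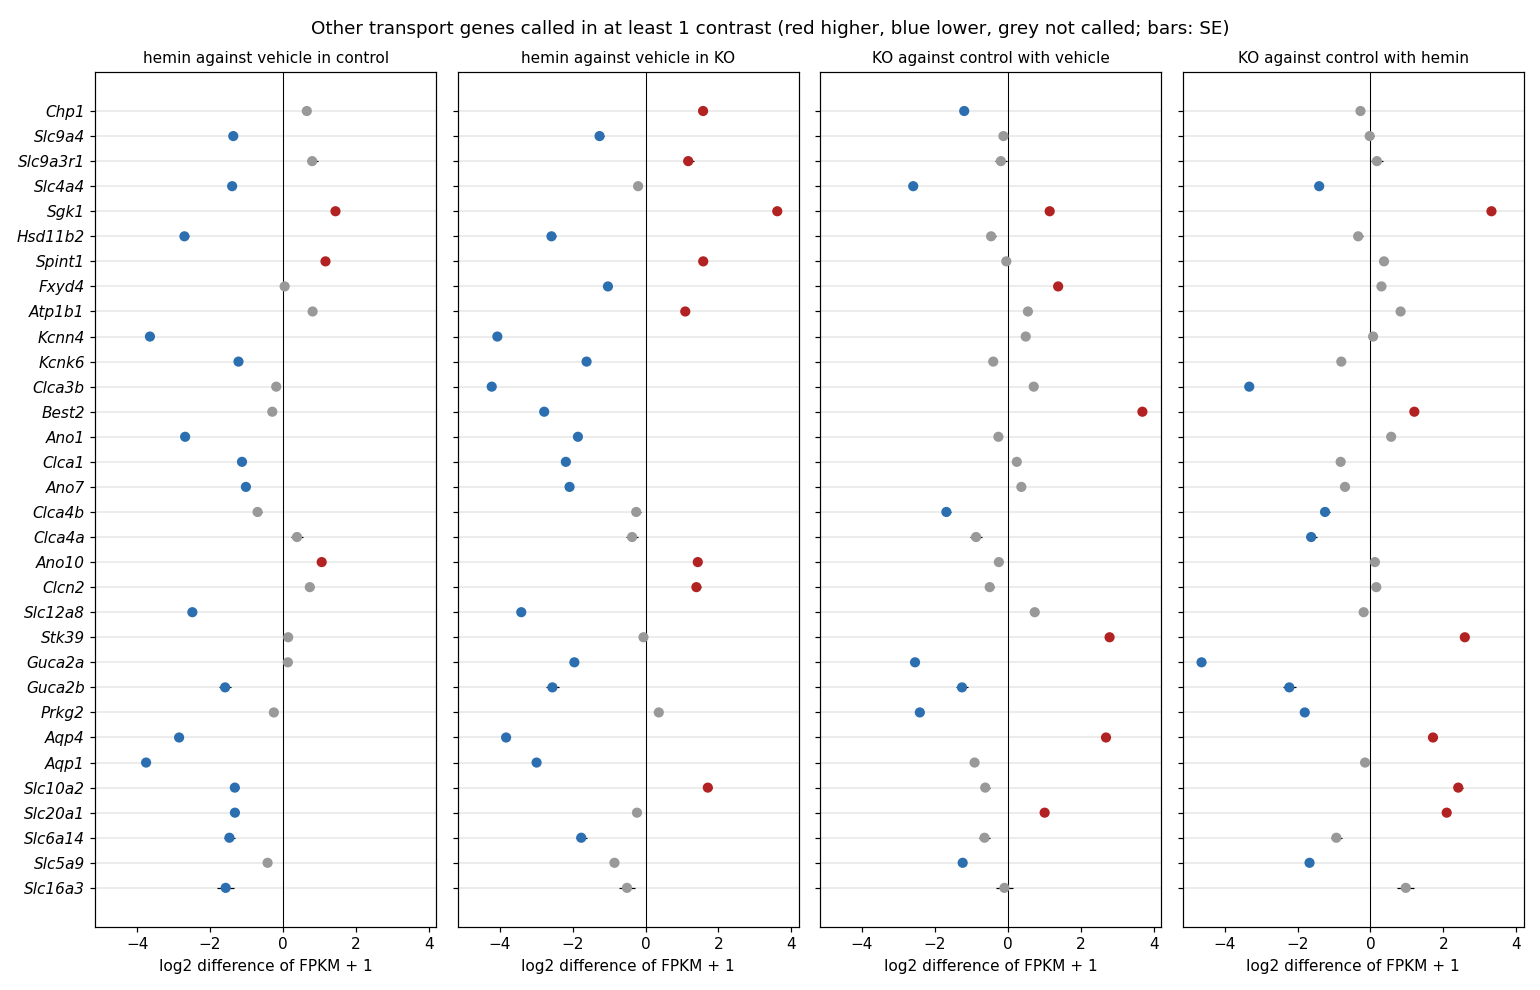
Log2 differences of FPKM + 1 (x axes) with standard errors for the 32 called genes of the wider transport list that the text names (y axis, by role) in 4 contrasts of 3 libraries a group. Red marks a gene called higher, blue lower and grey not called; *Guca2a* is the lowest in hemin-treated KO against control, at −4.63, and *Sgk1* the highest, at 3.32.

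Markers of cell types moved between the same groups, and their part in the results above was not tested. All 10 enteroendocrine markers were tested, and 7 were called higher in colonoids labelled KO with vehicle and none lower (all genes 3.53% and 3.27%), with 5 higher and 1 lower with hemin (3.1% and 2.91%). Both counts of higher calls include *Tac1*, at most 0.357 FPKM in controls and at least 1.56 in libraries labelled KO. It passed the filter only through the latter, so its genotype calls carry no weight. For hemin itself 1 of the 10 markers was called lower in controls (all genes 5.93%) and 5 in colonoids labelled KO (8.07%). Among these 5, *Neurod1* passed only through vehicle libraries, so its call carries no weight either. The summed FPKM of the 10 markers was 44.2, 49.6 and 51.9 in vehicle-treated controls, 41.9, 38.8 and 32.7 with hemin, 643, 677 and 643 in vehicle-treated KO and 514, 420 and 482 in hemin-treated KO, most of it in the KO libraries from *Pyy*. In this sum every library labelled KO exceeded every control library, and with hemin it fell in colonoids labelled KO. Since *Pyy* holds most of it there, the sum does not describe the cell type as a whole.

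The 9 goblet cell markers, all tested, had their lowest sum in hemin-treated KO, where *Slc12a2* and *Cftr* were lowest too. The summed FPKM was 1721, 1963 and 1891 in vehicle-treated controls, 1409, 1416 and 1056 with hemin, 2552, 2426 and 2496 in vehicle-treated KO and 659, 597 and 611 in hemin-treated KO, with *Tff3* the most abundant. For hemin 4 were called lower in controls (all genes 5.93%) and 8 in colonoids labelled KO (8.07%). The 8 stem cell markers summed to 83.6, 82.8 and 89.7 in vehicle-treated controls, 48.0, 54.5 and 42.3 with hemin, 124, 129 and 127 in vehicle-treated KO and 44.2, 47.0 and 47.5 in hemin-treated KO, with *Lrig1* highest over all libraries together. With hemin 2 of them were called lower in controls (all genes 5.93%) and 5 in colonoids labelled KO (8.07%). Both counts include *Smoc2*, at most 0.394 FPKM with hemin, and the latter also *Lgr5*, at most 0.857 with hemin. These genes passed the filter only through vehicle libraries, so their hemin calls carry no weight.

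Proliferation markers, 8 of 8 tested and led by *Pcna*, summed to 280, 254 and 258 in vehicle-treated controls, 97.0, 107 and 114 with hemin, 357, 354 and 355 in vehicle-treated KO and 171, 193 and 180 in hemin-treated KO. With hemin 7 of them were called lower in controls (all genes 5.93%) and 6 in colonoids labelled KO (8.07%). Absorptive colonocyte markers summed to 4561, 4596 and 4263 in vehicle-treated controls, 8150, 7340 and 10580 with hemin, 4588, 4699 and 4568 in vehicle-treated KO and 9590, 8287 and 8661 in hemin-treated KO. The hemin libraries lay above all vehicle libraries, as for *Slc9a2*, although by gene only 2 of 13 were called higher and 2 lower in controls (all genes 2.17% and 5.93%), and 4 and 4 in colonoids labelled KO (4.87% and 8.07%). Between genotypes with vehicle 3 were called higher in colonoids labelled KO, *Car4*, *Saa1* and *Aqp4*, and 1 lower, *Fabp2* (all genes 3.53% and 3.27%). With hemin the same 3 were called higher, and *Fabp2* and *Tmigd1* lower (3.1% and 2.91%). Sums that are alike between genotypes thus hold single markers that differ. Of 12 Paneth and small intestinal markers 4 were tested, with *Alpi* the most abundant over all libraries together, and their sum was 40.8 to 43.2 FPKM in vehicle-treated controls and at most 20.4 in every other library.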

How the data were processed

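The authors deposited 1 table of FPKM per gene for the 12 libraries, with gene coordinates and lengths. The submitters' processing notes name fastp, HISAT2 2.0.5, featureCounts 1.5.0-p3 and the mm10 build, and Novogene made the poly-A libraries. No column held a comparison. Members and gene lists were chosen with earlier results of these data known.

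Here fragments were recovered from FPKM and gene length. The model was limma 3.58.1 in R 4.3.3 on log2(FPKM + 1), with a mean for each group, 8 residual degrees of freedom, an intensity trend and Benjamini-Hochberg adjustment. It took in 12740 genes, those whose FPKM was no lower than 1 in 3 libraries or more. The functions were tested on simulated data. Tables and plots used Python 3.11.15, pandas 2.3.3 and matplotlib 3.10.9. Levels are means ± SD of FPKM, and log2 differences are limma's, with their SE.

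Named were *Hmox1*, the 10 members, the called genes of the wider list up to the 30 with the largest differences, the most abundant gene of each role over all libraries together, genes among the 3 tested ones most like each member and the most abundant gene of each marker list. Absorptive colonocyte markers called between genotypes are named too. Alternatives were a pseudocount of 0.1, other filters, TPM with and without *Gm23935*, the replicate number as a block, no trend, limma-voom on recovered fragments and each library left out. Leaving out the libraries rich in *Gm23935* was added after seeing the data. Sequences are from RefSeq. An interaction in the wider list and a gene among those most like a member are not reported here. Raw reads were not used here.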

Additional observations from a re-analysis of the deposited data

Results flagged for a closer look

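The limma interaction term, the log2 difference for hemin in colonoids labelled KO minus that in controls, picked out these genes of the wider transport list, which was chosen with earlier results of these data known. It was above 0 for *Slc10a2* (3.03), *Sgk1* (2.17), *Slc20a1* (1.08) and *Slc16a3* (1.07), and below 0 for *Clca3b* (−4.03), *Guca2a* (−2.08) and *Clca1* (−1.06). *Slc10a2* was called in opposite directions, lower with hemin in controls and higher in colonoids labelled KO. *Slc16a3* lost its call under 13 of 21 alternatives, and *Slc20a1* lost its own on both TPM scales (0.92 and 0.96, which are 1.03 and 1.04 relative to the median gene).

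Also picked out were *Best2* (−2.48), *Fxyd4* (−1.07), *Ano7* (−1.06) and *Slc4a4* (1.19), but these passed the filter on low values only through the groups where they are high, so no difference in response is read from them. *Best2* and *Fxyd4* are near 0 in controls and have little room to fall there, and the value of *Best2* turned to 0.18 with limma-voom. *Ano7* lost its call without replicate 1 of vehicle-treated controls.

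Among the 10 members, every hemin library of *Slc26a3* lay above every vehicle library in controls and below every one in colonoids labelled KO. The log2 difference in KO minus that in control was −1.71. The fit that gave this value also called it, but the gene was chosen on these libraries, so the call is no test and the difference counts as not tested. *Hmox1* was lower in every vehicle-treated library labelled KO than in every vehicle-treated control (−1.27), as the label says, and higher in every hemin-treated one (1.53), so each of these differences rests on the labels.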

How the results depend on the processing

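Calls were recomputed under 21 alternatives. Counts of all called genes for hemin in controls, hemin in KO, KO against control with vehicle, KO against control with hemin and the interaction (1033, 1648, 866, 766 and 654) became 629, 1043, 392, 422 and 334 with a mean FPKM of at least 5, where fewer genes were tested. With limma-voom on recovered fragments the first 4 became 1830, 2605, 1304 and 1399, and with a pseudocount of 0.1 the first and the fourth became 1760 and 1342. Those of the transport list for KO against control with vehicle, with hemin and the interaction (16, 17 and 12) became 9, 11 and 6 with a mean of at least 5, and the second became 26 with limma-voom. Apart from the filter on the mean, the cause was not tested.

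For hemin in controls the count of called members rose from 1 to 2 with a pseudocount of 0.1, with limma-voom, without the 3 libraries rich in *Gm23935* and without replicate 1 or 2 of hemin-treated controls, each through *Slc26a3* (0.97, and 1.03 or 1.08 without those replicates); it ranged from 1 to 2 over libraries left out. In 8 of 40 member contrasts some alternative changed a call. The interaction of *Scnn1a* (1.08) was lost without replicate 3 of hemin-treated controls (1.00) or replicate 1 of hemin-treated KO (0.98), with the pseudocount of 0.1 (0.98), on both TPM scales (0.86 and 0.92) and with limma-voom (0.97). The TPM value of 0.86 is 0.96 relative to the median gene, which also falls short of the threshold. That of *Atp12a* (1.33), which carries no weight, was not called with limma-voom (3.56). Its controls hold 19 fragments with vehicle and no fragment with hemin, and the cause was not tested. No called member changed sign. Of 86 called contrasts of *Hmox1* and named transport genes, 11 lost their call under some alternative, and the interaction of *Slc16a3* did so under 13. The interaction of *Best2* (−2.48) became 0.18 with limma-voom, where its controls with hemin are at 0.

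With the replicate block 1028 genes were called for hemin in controls, and counts of called members were as before. Deviations from group means correlated at −0.0425 on average over 18 same-numbered pairs (−0.327 to 0.179) and at 0.0232 over 36 others. No shared deviation by number was thus seen. With 3 libraries a group this cannot settle whether the numbers pair the libraries. Depth limits *Scnn1b*, *Scnn1g* and *Atp12a* in controls, which rest on few fragments or none.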
